A study of Mus musculus with 6 samples.

Results

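The genes described here encode the mTOR kinase complexes and the machinery through which they sense amino acids, energy and stress. They were chosen by name, not by their values, though earlier results of these data were known. They comprise 45 of the 52636 genes listed in an expression table of mouse bone marrow neutrophils. All 45 were found, 44 under the listed symbol and Castor1 under its older symbol Gatsl3. Neutrophils came from the marrow of C57BL/6N mice aged 10 weeks, and the 6 libraries fall into 3 WT and 3 LRP5-null. The labels give the LRP5-null genotype as LRP5f/f/Lyz2Cre+, and no diet, infection or drug is given for either group. Lyz2-driven Cre is also active in monocytes and macrophages, and the Cre sits in the Lyz2 gene itself. Neither the labels nor the methods say whether the WT mice carried floxed alleles or Cre, or whether each library came from a separate mouse, so p-values measure the spread between these libraries only.

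mTOR is a kinase that works in a pair of complexes, mTORC1, built around raptor (Rptor), and mTORC2, built around rictor (Rictor). When amino acids are plentiful, Rag GTPases anchored by the Ragulator complex bring mTORC1 to the lysosome, where the GTPase Rheb switches it on. The TSC complex restrains Rheb, the GATOR complexes and their amino acid sensors control the Rags, and AMPK signals low energy to TSC and raptor. Active mTORC1 phosphorylates the S6 kinases and the 4E-BP repressors of translation, and in neutrophils the pathway is studied for its part in migration, metabolism and the release of extracellular traps. All of this control acts on proteins and their phosphorylation, which transcript levels do not measure.

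Expression is given in TPM, a transcript abundance scaled to one total per library, a level that takes out gene length and so can be compared between genes within a library. A gene was tested when its mean over the 6 libraries was at least 1 TPM, and 9775 genes were. Of the 45 genes, 41 passed this filter and 4 did not. Differences are given as the log2 fold change of TPM + 1, LRP5-null minus WT, which understates the change of low genes, from limma with Benjamini-Hochberg adjustment over all genes tested. A gene was called at an adjusted p under 0.05.

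None of the 41 genes was called (limma), against 0.532% of all genes tested. The smallest adjusted p among them was 0.103, for Rptor. At an unadjusted p under 0.05 there were 6 higher in LRP5-null, Castor1, Rptor, Tsc2, Slc38a9, Lamtor5 and Tsc1, and 3 lower, Fnip1, Prkaa1 and Rragc. That is 22% of the 41 genes, beside 14.4% of all genes tested that were higher and 9.12% that were lower by the same measure, together 23.5%. The 3 LRP5-null libraries lay wholly above the 3 WT libraries in 7 genes, where 17.4% of all genes tested did so, and wholly below in 6 genes, where 12.3% did. The counts were thus near the background of this table. The median log2 fold change was 0.04 in the 41 genes and also 0.04 over all genes tested, with 26 genes above 0 and 15 below. Scaling by median ratios moved the split to 20 above and 21 below, so that direction is described here only relative to the scale used.

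**Figure D1:**
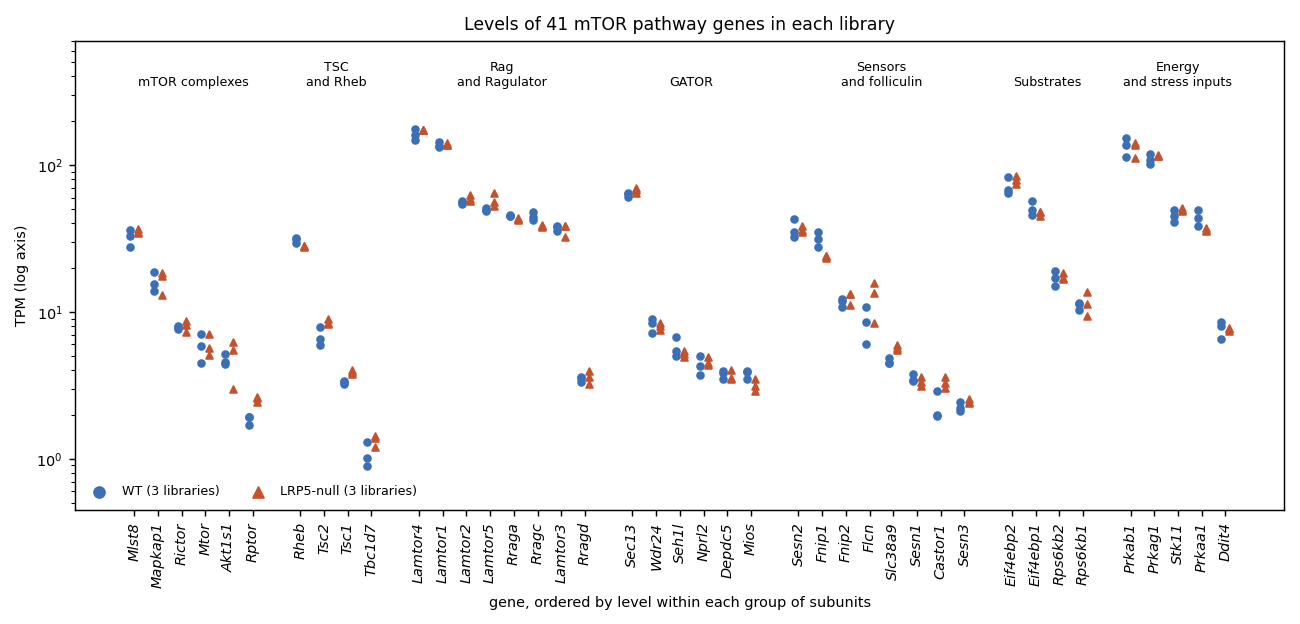
TPM (log axis) of the 41 genes that passed the filter in each of the 6 libraries, circles for WT and triangles for LRP5-null, grouped by complex and ordered by level within each group. Ragulator and AMPK subunits reach above 100 TPM, with Lamtor4 highest, while Rptor and Tbc1d7 lie near the bottom, and the points of both groups lie close together for most genes.

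Several facts about the libraries bear on all that follows. Lrp5, the targeted gene, was 1.12, 1.31 and 1.42 TPM in the libraries labelled WT and 1.68, 1.77 and 2.07 TPM in those labelled LRP5-null, so the transcript was not lower, and each direction given here rests on the labels. TPM over the whole gene does not show whether the floxed part was lost. Lyz2 was lower, at a log2 fold change of −0.91 (adjusted p = 0.00351, limma). The share of ribosomal RNA was 1.2% for WT replicate 1, 1.3% for WT replicate 2, 3.3% for WT replicate 3 and 2.69% to 2.98% for LRP5-null, and intronic reads made up 7.78% to 9.0% in WT and 10.62% to 11.23% in LRP5-null. All 11 neutrophil markers were expressed, with summed levels of 360347 to 408545 TPM in WT and 391865 to 415938 TPM in LRP5-null. All 8 markers of immature neutrophils had higher means in LRP5-null, with summed levels of 413 to 431 TPM against 329 to 374 TPM in WT, and 6 of 7 markers of mature neutrophils had lower means. Summed markers of T and NK cells were 15.4 to 16.8 TPM against 11.2 to 12.9 TPM in WT, with Cd3e, Cd3g and Klrd1 under 1 TPM in all libraries, and those of eosinophils, basophils and mast cells were 4.68 to 5.65 TPM against 2.80 to 3.82 TPM, with Epx, Cpa3 and Ms4a2 under 1 TPM and Prg2 called higher. The summed ranges of monocyte and macrophage, erythroid and B lineage markers overlapped between the groups, though Ly6c2 held most of the monocyte sum. Cebpe likewise held most of the immature neutrophil sum, at 268 to 317 TPM in WT and 337 to 357 TPM in LRP5-null. Cd3d held most of the T and NK sum, at 9.33 to 10.6 TPM in WT and 13.4 to 14.5 TPM in LRP5-null. S100a8 and S100a9 held most of the neutrophil sum. Adgre1 was wholly higher in LRP5-null (means 11.4 TPM in WT and 14.9 TPM in LRP5-null) and Hba-a1 wholly lower (9.3 and 7.3 TPM), neither of them called. Of the monocyte markers tested 3 were higher and 1 lower, and of the erythroid markers 1 was higher and 1 lower. The part of these differences in the results below was not tested, and in bulk RNA fewer cells of a type and less RNA per cell cannot be told apart.

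Among the subunits of the mTOR complexes, 5 of the 6 genes tested had a positive log2 fold change, but those of Mtor, Rictor and Mapkap1 turned negative under median-ratio scaling and only Rptor separated the groups. Mlst8, the subunit shared by both complexes, was the most abundant, at 27.5, 32.7 and 35.99 TPM in WT and 34.8, 34.6 and 36.4 TPM in LRP5-null, and its groups overlapped (log2 fold change 0.14, adjusted p = 0.432). Mtor, the kinase itself, was expressed several times lower, at 4.48, 5.83 and 7.12 TPM in WT and 5.69, 5.06 and 7.05 TPM in LRP5-null. All LRP5-null values of Mtor lay within the range of the WT values, and the difference of 0.03 on the log2 scale (95% confidence interval −0.35 to 0.42, adjusted p = 0.917) was far smaller than the spread between replicates.

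Rptor, the scaffold that recruits substrates to mTORC1, was the least abundant subunit that passed the filter. It measured 1.69, 1.92 and 1.92 TPM in WT and 2.65, 2.42 and 2.58 TPM in LRP5-null. Every LRP5-null library was above every WT library, by a log2 fold change of 0.32 ± 0.08 (SE; adjusted p = 0.103, limma). Rptor lies on the plus strand of chromosome 11, from 119464219 to 119760890 in NCBIM37 (mm9), and its transcript has a GC content of 56.5%. Without WT replicate 3, Rptor was called (log2 fold change 0.34, adjusted p = 0.0398), and with GC and length trends taken out of each library its difference was 0.15 (adjusted p = 0.339).

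Rictor, the matching scaffold of mTORC2, was 7.88, 7.70 and 7.98 TPM in WT and 7.29, 8.20 and 8.60 TPM in LRP5-null. The WT values of Rictor lay inside the range of the LRP5-null values, with a difference of 0.03 (95% confidence interval −0.17 to 0.22). Mapkap1, which encodes the mTORC2 subunit mSIN1, was 16.03 ± 2.45 TPM in WT and 16.25 ± 2.91 TPM in LRP5-null (SD, n = 3 each). Akt1s1, encoding the mTORC1 inhibitor PRAS40, had means of 4.73 ± 0.40 TPM and 4.90 ± 1.71 TPM (SD, n = 3 each), and in LRP5-null replicate 1 it was 2.97 TPM, below all other libraries. Deptor, which inhibits both complexes, was 0.132, 0.12 and 0.139 TPM in WT and 0.085, 0.105 and 0.081 TPM in LRP5-null. These levels were below the filter, and Deptor was not tested in the main fit. Without a filter Deptor was among 11 of 45 genes with an unadjusted p under 0.05, and it was not called (limma). These are 24.4% of the 45 genes, beside 14.7% of the 23220 genes then tested. That background takes in every gene detected in any library, so the shares are not like for like. Among genes that passed the filter they were 22% and 23.5%. From Mlst8 through Mapkap1, Rictor, Mtor and Akt1s1 to Rptor the order of levels was the same in all 6 libraries, except that Mtor was above Akt1s1 in 4 of 6.

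In the TSC complex, the brake on Rheb, all 3 subunits had higher means in LRP5-null, under each scaling tried. Tsc2, the subunit with the GTPase-activating domain, was 5.95, 6.504 and 7.87 TPM in WT and 8.37, 8.32 and 8.91 TPM in LRP5-null. Tsc1, its stabilizing partner, was 3.38, 3.25 and 3.32 TPM in WT and 3.77, 3.90 and 4.04 TPM in LRP5-null. The groups of both genes did not overlap, and WT replicate 3 stood between the other WT libraries and the LRP5-null libraries for Tsc2 but not for Tsc1. The log2 fold changes were 0.30 ± 0.10 for Tsc2 (SE; adjusted p = 0.159, limma) and 0.18 ± 0.07 for Tsc1 (SE; adjusted p = 0.190). Against WT replicate 3 alone, Tsc2 was 0.10 higher on the log2 scale and Tsc1 0.18 higher. With GC and length trends removed these became 0.15 (adjusted p = 0.120) and 0.04 (adjusted p = 0.772). Tbc1d7, the small remaining subunit, was 1.01, 0.895 and 1.31 TPM in WT and 1.204, 1.39 and 1.43 TPM in LRP5-null, with overlap between the groups (log2 fold change 0.18, adjusted p = 0.315).

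Rheb, the activator that TSC switches off, went the other way. It was 31.8, 31.3 and 29.3 TPM in WT and 27.7, 28.1 and 28.1 TPM in LRP5-null, and no library of one group reached into the other. The difference was small, at −0.13 ± 0.07 (SE; adjusted p = 0.275, limma).

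The Rag GTPases work as pairs of RagA or RagB with RagC or RagD. RagA and RagC made up nearly all of the Rag transcripts here. Rraga was 44.8, 44.8 and 45.7 TPM in WT and 42.8, 42.3 and 43.8 TPM in LRP5-null, and Rragc was 48.1, 44.0 and 41.9 TPM in WT and 38.5, 37.5 and 38.9 TPM in LRP5-null. Rragd was much lower, at 3.32, 3.53 and 3.59 TPM in WT and 3.23, 3.602 and 3.99 TPM in LRP5-null, and Rragb did not exceed 0.063 TPM and was listed at 0 in 3 libraries. Both abundant Rag genes were lower in every LRP5-null library than in any WT library, by −0.21 ± 0.07 for Rragc (SE; adjusted p = 0.160, limma) and −0.07 ± 0.06 for Rraga (SE; adjusted p = 0.528). Without WT replicate 3, Rragc was called at −0.26 (adjusted p = 0.0426), and against WT replicate 3 alone the difference was −0.13. Rragc lies on the plus strand of chromosome 4, from 123594689 to 123614240 in NCBIM37.

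Ragulator, the lysosomal anchor of the Rags, has 5 subunits, and Lamtor4 and Lamtor1 had the highest means of the 45 genes. Lamtor4 was 147, 160 and 177 TPM in WT and 173, 174 and 172 TPM in LRP5-null, above 94.3% of all genes tested. Lamtor1, which carries the lipid anchor, was 131 to 143 TPM in WT and 137 to 142 TPM in LRP5-null. Lamtor2, Lamtor5 and Lamtor3 followed at means over all libraries of 57.6, 53.6 and 36.8 TPM. Lamtor5 was 48.5, 50.8 and 49.4 TPM in WT and 55.6, 64.6 and 52.8 TPM in LRP5-null. It was the one Ragulator gene whose groups did not overlap, with a log2 fold change of 0.21 ± 0.09 (SE; adjusted p = 0.207, limma), and its highest library was LRP5-null replicate 2, without which the difference was 0.13. The other 4 subunits differed by −0.04 to 0.10, each with overlapping groups. The summed level of all 5 was 422.2 to 460.7 TPM in WT and 458.5 to 471.5 TPM in LRP5-null, with overlap.

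GATOR1 (Depdc5, Nprl2, Nprl3) turns RagA off, and GATOR2 (Mios, Wdr24, Wdr59, Seh1l, Sec13) opposes it. None of the 6 GATOR genes tested had an unadjusted p under 0.05 as fitted. Sec13, which also serves in the COPII coat and the nuclear pore, was 60.2, 63.1 and 64.2 TPM in WT and 69.5, 67.5 and 64.5 TPM in LRP5-null, several times above any other GATOR gene. The groups of Sec13 were separated only by the small gap between WT replicate 3 and LRP5-null replicate 3 (log2 fold change 0.10, adjusted p = 0.378). Mios, the least abundant GATOR gene tested, was 3.95, 3.92 and 3.49 TPM in WT and 3.47, 2.91 and 3.11 TPM in LRP5-null. Its groups also just failed to overlap, at −0.20 ± 0.09 (SE; adjusted p = 0.219, limma). The unadjusted p of Mios (limma) was 0.0409 under median-ratio scaling, 0.0287 without WT replicate 3 and 0.134 with GC and length trends removed. Wdr24, Seh1l, Nprl2 and Depdc5 had means of 3.72 to 8.06 TPM over all libraries and differences of −0.12 to 0.07, each with overlapping groups. Nprl3, at 0.353 to 0.951 TPM, and Wdr59, at 0.604 to 0.842 TPM, were below the filter.

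The sensors and the folliculin complex held the 3 largest log2 fold changes of TPM + 1 among the 41 genes, those of Flcn, Castor1 and Fnip1. With a pseudocount of 0.1 TPM, Rptor (0.45) came before Fnip1 (−0.38), and with GC and length trends removed others, such as Slc38a9 (0.33) and Eif4ebp1 (−0.27), did. Castor1, the cytosolic arginine sensor that binds GATOR2, was 1.97, 1.95 and 2.88 TPM in WT and 3.05, 3.27 and 3.601 TPM in LRP5-null, with WT replicate 3 close to the LRP5-null libraries. The log2 fold change was 0.41 ± 0.13 (SE; adjusted p = 0.138, limma), 0.54 without WT replicate 3 (adjusted p = 0.0172) and 0.15 against WT replicate 3 alone. Castor1 lies on the plus strand of chromosome 11, from 4118228 to 4122412 in NCBIM37.

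In Slc38a9, the arginine sensor in the lysosomal membrane, WT replicate 3 did not stand apart from the other WT libraries. Slc38a9 was 4.83, 4.45 and 4.46 TPM in WT and 5.93, 5.54 and 5.64 TPM in LRP5-null, with a gap between the groups wider than the range of either. The log2 fold change was 0.26 ± 0.08 (SE; adjusted p = 0.125, limma), 0.25 without WT replicate 3 and 0.30 against WT replicate 3 alone. With the GC and length trends removed it was 0.33 and passed the threshold (adjusted p = 0.0336). Slc38a9 lies on the plus strand of chromosome 13, from 113450984 to 113523106 in NCBIM37.

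The sestrin genes were dominated by Sesn2, which encodes a leucine sensor. Sesn2 was 32.5, 34.9 and 42.6 TPM in WT and 35.1, 35.9 and 38.6 TPM in LRP5-null, with a difference of 0.00 (95% confidence interval −0.25 to 0.26). Sesn3, the least abundant gene of the sensor group, was 2.43, 2.12 and 2.22 TPM in WT and 2.39, 2.45 and 2.57 TPM in LRP5-null. Sesn1 was at 3.12 to 3.77 TPM over all libraries, and the groups overlapped for both, with differences of −0.06 for Sesn1 and 0.09 for Sesn3.

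Folliculin and its partners FNIP1 and FNIP2 act on RagC. Flcn, which encodes folliculin, differed by 0.50 on the log2 scale, with the largest error of the 41 genes (SE 0.25, adjusted p = 0.270). It was 6.05, 10.9 and 8.58 TPM in WT and 8.38, 13.5 and 15.8 TPM in LRP5-null, and LRP5-null replicate 1 lay below WT replicates 2 and 3. The difference in Flcn was 0.31 without WT replicate 1, 0.33 without LRP5-null replicate 3 and 0.75 without LRP5-null replicate 1. Fnip1 was 34.9, 31.1 and 27.4 TPM in WT and 23.3, 24.1 and 24.1 TPM in LRP5-null, a log2 fold change of −0.37 ± 0.10 (SE; adjusted p = 0.110, limma). All WT libraries of Fnip1 were above all LRP5-null libraries, with WT replicate 3 the nearest. The difference was −0.45 without WT replicate 3 (adjusted p = 0.0164), −0.20 against it alone and −0.18 with GC and length trends removed (adjusted p = 0.055). Fnip2 was 11.7 ± 0.8 TPM in WT and 12.6 ± 1.2 TPM in LRP5-null (SD, n = 3 each). Fnip1 lies on the plus strand of chromosome 11, from 54251701 to 54331737 in NCBIM37, and its transcript is the lowest in GC content of the 41, at 38.9%.

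**Figure D2:**
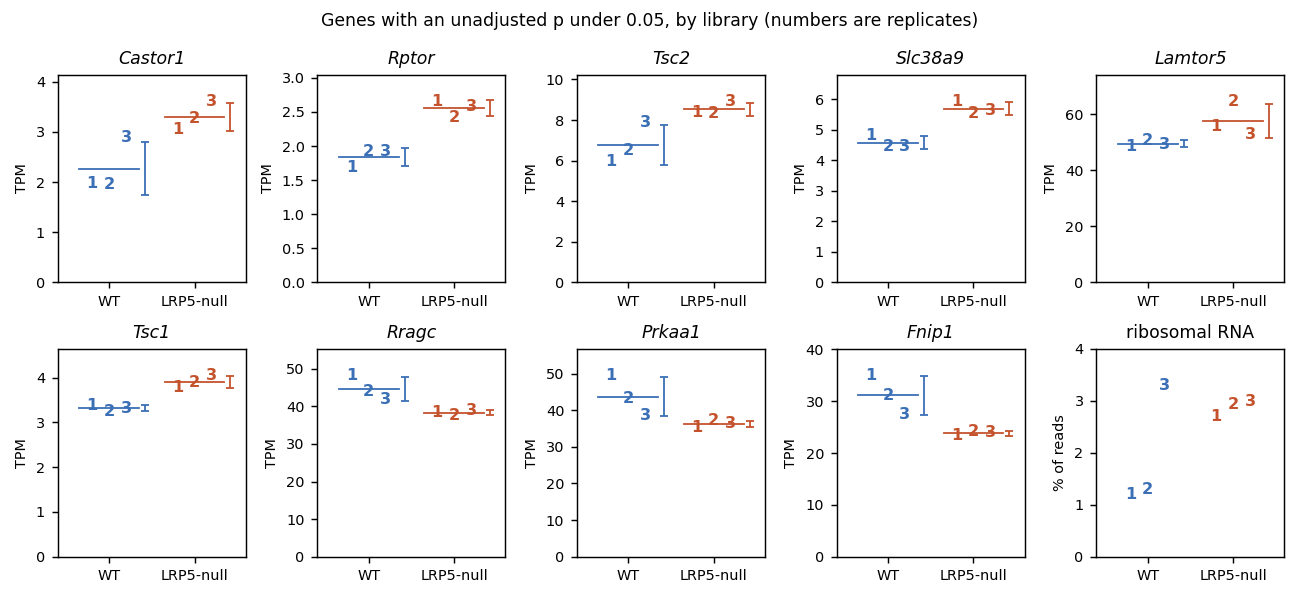
TPM in each library, shown as its replicate number, of the 9 genes with an unadjusted p under 0.05, with a line at each group mean and a bar for 1 SD (n = 3 per group), and in the last panel the percentage of reads assigned to ribosomal RNA. All axes start at 0, the groups do not overlap in any of the 9 genes, and WT replicate 3 is the WT library nearest to the LRP5-null mean in 5 of them, Castor1, Tsc2, Rragc, Prkaa1 and Fnip1.

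The mTORC1 substrates showed no separation of the groups. Eif4ebp2 was 64.5, 67.9 and 82.8 TPM in WT and 74.7, 79.2 and 83.8 TPM in LRP5-null (log2 fold change 0.15, adjusted p = 0.418). Eif4ebp1 was 45.7, 49.0 and 57.0 TPM in WT and 44.6, 47.9 and 47.5 TPM in LRP5-null (log2 fold change −0.11, adjusted p = 0.510). In both 4E-BP genes WT replicate 3 was the highest of the WT libraries, and for Eif4ebp1 it was the highest of all. Eif4ebp1 passed the threshold once GC and length trends were removed, at −0.27 (adjusted p = 0.0479), and was −0.02 without WT replicate 3. The S6 kinase genes were lower in level, with group means close together as fitted. Rps6kb1 was 11.4, 11.3 and 10.3 TPM in WT and 11.3, 9.37 and 13.6 TPM in LRP5-null. Its difference was 0.04 (95% confidence interval −0.26 to 0.33). Rps6kb2 was 16.9 ± 2.0 TPM in WT and 17.4 ± 0.9 TPM in LRP5-null (SD, n = 3 each). With GC and length trends removed the differences were 0.23 for Rps6kb1 (adjusted p = 0.290, limma) and −0.07 for Rps6kb2 (adjusted p = 0.402, limma).

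Of the energy and stress inputs, AMPK subunits ranked among the most abundant genes of the pathway. Prkab1, the regulatory β1 subunit, was 112, 137 and 152 TPM in WT and 111, 136 and 141 TPM in LRP5-null, and Prkag1, the nucleotide-binding γ1 subunit, was 109 ± 8 TPM and 115 ± 1 TPM (SD, n = 3 each). Prkaa1, the catalytic α1 subunit, was 49.3, 43.2 and 38.6 TPM in WT and 35.3, 37.1 and 36.3 TPM in LRP5-null, with no overlap. Its log2 fold change was −0.26 ± 0.10 (SE; adjusted p = 0.177, limma), −0.34 without WT replicate 3 (adjusted p = 0.0308) and −0.09 against WT replicate 3 alone. The transcript of Prkaa1 is low in GC content, at 40.2%, and with GC and length trends removed the difference was −0.08 (adjusted p = 0.275). Stk11, which encodes the AMPK-activating kinase LKB1, was 45.1 ± 4.3 TPM in WT and 49.4 ± 1.0 TPM in LRP5-null (SD, n = 3 each). Ddit4, a stress-induced inhibitor of mTORC1 also called REDD1, was 6.54, 8.04 and 8.47 TPM in WT and 7.73, 7.61 and 7.45 TPM in LRP5-null (log2 fold change −0.01, 95% confidence interval −0.24 to 0.23).

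**Figure D3:**
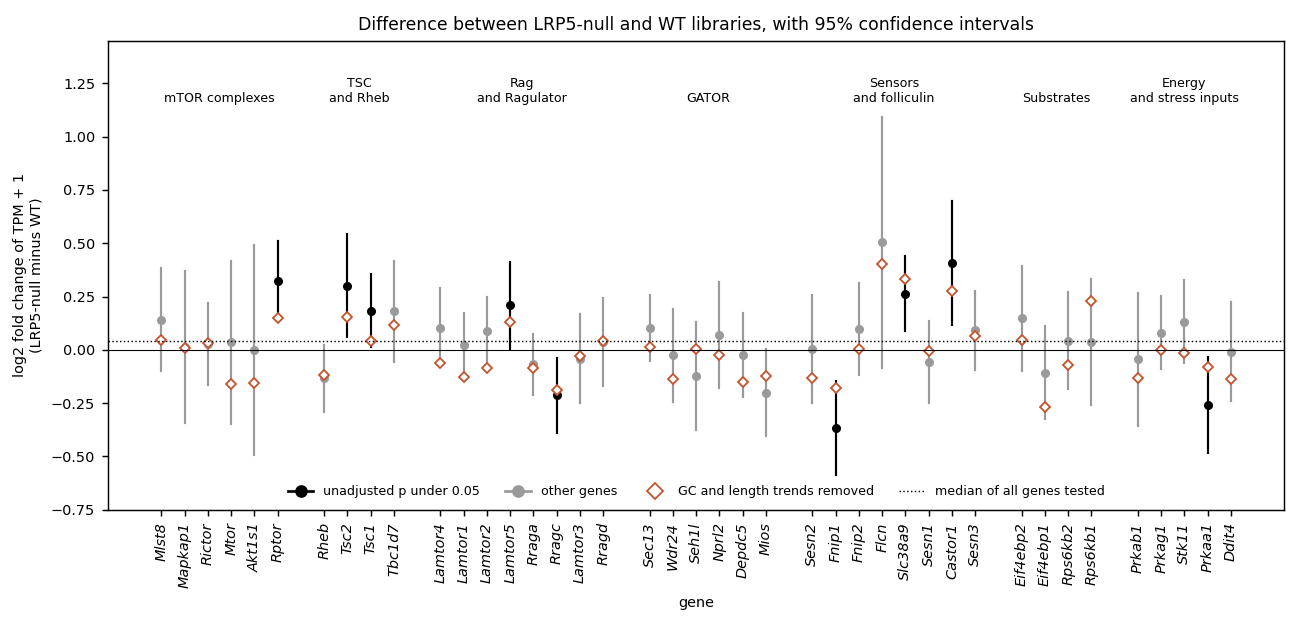
Log2 fold change of TPM + 1, LRP5-null minus WT, of the 41 genes tested, with 95% confidence intervals from limma as vertical lines, black for an unadjusted p under 0.05 and grey otherwise; open diamonds give the same difference after GC and length trends were removed. The points run from −0.37 (Fnip1) to 0.50 (Flcn) around the median of all genes, 0.04 (dotted line), and the diamond of Slc38a9 lies above its point while those of Rptor, Tsc1, Tsc2, Fnip1 and Prkaa1 lie nearer to 0.

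The balance between paralogs or paired subunits was compared within libraries, where the scaling of a library has no part. Of 7 ratios, 3 did not overlap between the groups. The log2 ratio of Eif4ebp1 to Eif4ebp2 was −0.50, −0.47 and −0.54 in WT and −0.74, −0.73 and −0.82 in LRP5-null, a difference of −0.26 that was several times the SD of 0.035 in WT and 0.049 in LRP5-null. The log2 ratio of Fnip1 to Fnip2 was 1.55, 1.53 and 1.16 in WT and 1.06, 0.87 and 0.86 in LRP5-null, a difference of −0.48. The ratio of Rptor to Rictor, the scaffolds that define mTORC1 and mTORC2, was −2.22, −2.004 and −2.06 in WT and −1.46, −1.76 and −1.73 in LRP5-null, a difference of 0.44. For each of these ratios the exact two-sided permutation test gave p = 0.1, the smallest that 3 libraries against 3 allow, and 0.233 after Benjamini-Hochberg adjustment over the 7 ratios, so no ratio could pass a threshold of 0.05 in this design. The ratios of Rragc to Rragd and of Sesn1 to Sesn3 differed by −0.26 and −0.21 (p = 0.2 each, exact permutation test), that of Tsc1 to Tsc2 by −0.11 (p = 0.6) and that of Rps6kb1 to Rps6kb2 by −0.01 (p = 1.0). The Eif4ebp1 to Eif4ebp2 ratio kept its size with any library left out, at −0.28 to −0.23. Its transcripts have GC contents of 57.2% and 55.1% and lengths of 981 and 1786 bases. The GC contents are 38.9% and 49.2% for Fnip1 and Fnip2 and 56.5% and 42.5% for Rptor and Rictor. They are 39.2% and 57.2% for Rps6kb1 and Rps6kb2 and 47.0% and 46.5% for Rragc and Rragd. Whether GC content bears on any of the ratios was not tested. With GC and length trends removed (log2 of TPM + 1, added after the data had been seen), the difference was −0.32 for Eif4ebp1 to Eif4ebp2 and −0.18 for Fnip1 to Fnip2, both still without overlap, and 0.12 for Rptor to Rictor, where the groups overlapped (p = 0.6, exact permutation test). The ratio of Rps6kb1 to Rps6kb2 then changed sign, to 0.30, and neither it nor that of Rragc to Rragd, at −0.23, overlapped between the groups (p = 0.1 each, exact permutation test).

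**Figure D4:**
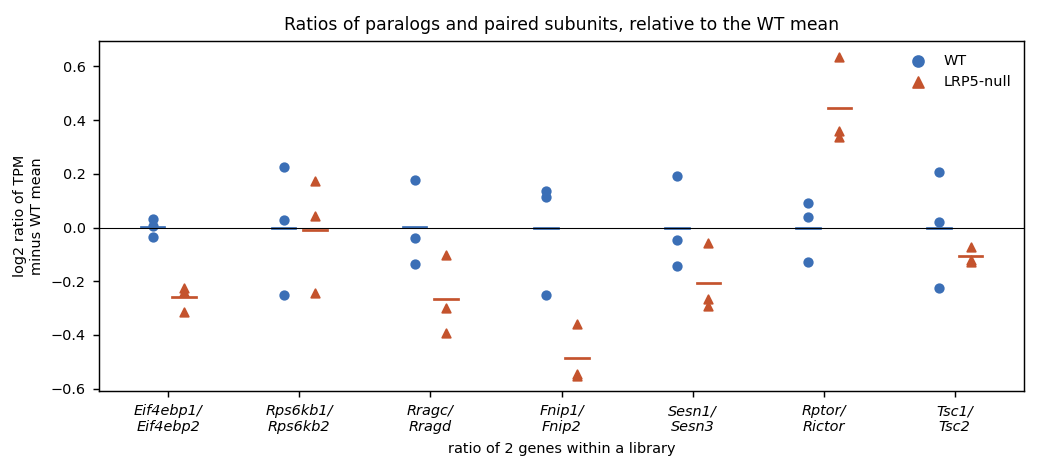
Log2 ratio of TPM of 7 pairs of paralogs or paired subunits in each library, minus the WT mean of that ratio, circles for WT and triangles for LRP5-null, with a line at each group mean (n = 3 per group). The groups do not overlap for Eif4ebp1/Eif4ebp2, Fnip1/Fnip2 and Rptor/Rictor, and the Eif4ebp1/Eif4ebp2 ratio has the tightest WT libraries.

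The libraries differed in how their levels followed the GC content of transcripts, and the mTOR genes followed this with all others. GC content ranged from 38.9% (Fnip1) to 61.8% (Akt1s1) over the 41 genes, with a median of 52.4%. Across these 41 genes, the deviation of WT replicate 1 from the mean of all libraries had a Spearman correlation of −0.65 with GC content, that of WT replicate 2 −0.33, that of WT replicate 3 0.46, and those of the LRP5-null libraries 0.19 to 0.41. The log2 fold change itself had a correlation of 0.36 with GC content over the 41 genes and 0.49 over the 8769 genes with a known GC content, and −0.17 over the 41 genes after the trends were removed. Over the 8769 genes, the deviations of WT replicates 1, 2 and 3 had correlations with GC content of −0.61, −0.43 and 0.37. Those of the LRP5-null libraries were 0.33 to 0.44. Genes of one library are not independent replicates, and these values describe the libraries. WT replicate 3 was the WT library nearest to the LRP5-null mean in 21 of the 41 genes. The same count was not made over all genes tested, so it cannot be called particular to these genes. The libraries of low ribosomal RNA share were both WT, so within them no comparison can be made, and the libraries above 2% hold 1 WT library.

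**Figure D5:**
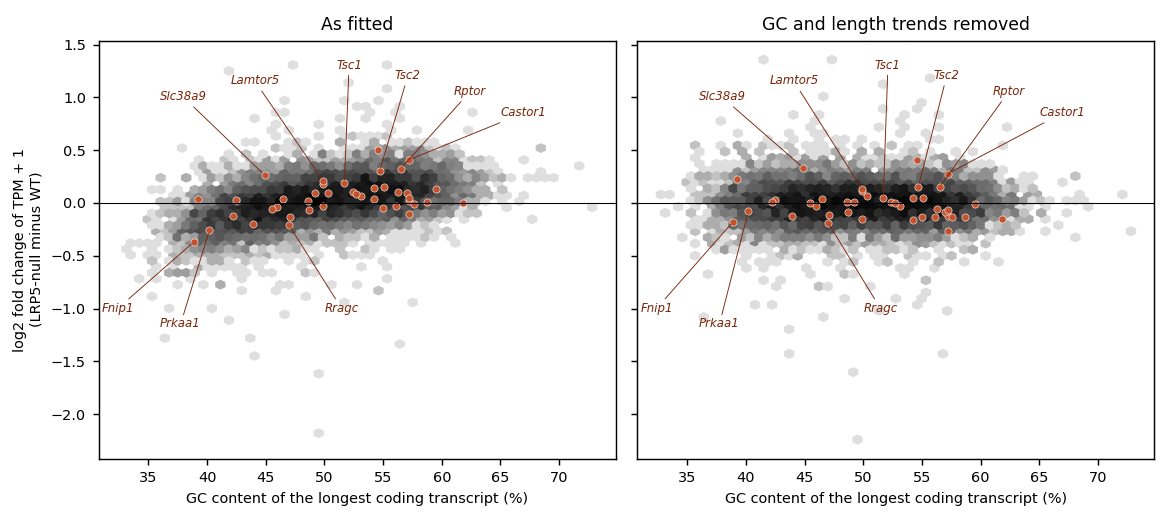
Log2 fold change of TPM + 1, LRP5-null minus WT, against the GC content of the longest coding transcript in percent, as fitted (left) and after GC and length trends were removed from each library (right). Grey hexagons hold all 8769 genes with a known GC content, darker for more genes on a log scale, and coloured points are the 41 mTOR pathway genes; labelled are the 9 with an unadjusted p under 0.05. All genes rise with GC content on the left and lie level on the right, where Slc38a9 is at 0.33, Castor1 at 0.28, Rragc at −0.19 and Fnip1 at −0.18.

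Which mTOR genes were called depended on WT replicate 3 and on the GC trends. Without WT replicate 3, 3 of the 41 genes were called higher, Castor1, Rptor and Tsc2, where 12.1% of all genes tested were, and 3 were called lower, Fnip1, Prkaa1 and Rragc, where 7.57% were. For 5 of these 6 genes, all but Rptor, WT replicate 3 was the WT library nearest to the LRP5-null mean. The genes were picked by leaving that library out, so this count follows largely from the choice. With GC and length trends removed, Slc38a9 was the 1 gene called higher, where 1.79% of 8769 genes were, and Eif4ebp1 the 1 called lower, where 3.06% were. The 2 sets of called genes had no gene in common. On the scale with the trends removed, Slc38a9 had log2 levels of 2.47, 2.42 and 2.46 in WT and 2.85, 2.75 and 2.74 in LRP5-null, and Eif4ebp1 5.71, 5.74 and 5.84 in WT and 5.43, 5.54 and 5.52 in LRP5-null. For both genes the groups were apart and WT replicate 3 was not the WT library nearest to LRP5-null.

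Promoter sequences were searched for letters known as binding motifs of factors tied to this pathway, using the RefSeq windows from 250 bases before to 50 after each gene start (GRCm38.p6), which gave 41 promoters for 39 of the 45 genes. Deptor, Lamtor3, Wdr24, Seh1l, Rps6kb2 and Eif4ebp1 had no window. The E-box CACGTG, read by TFEB, TFE3, MYC and USF factors, was in 7 of the 41 promoters (17.1%) and in 7.15% of all 32851 promoters. Its longer form TCACGTG, which overlaps it, was in 14.6% against 3.77%, the ETS motif CCGGAAG in 29.3% against 8.86%, the FOXO motif GTAAACA in 9.8% against 3.65% and CCAAT in 41.5% against 37.41%. The ATF4-type TGATGNAA and the CRE TGACGTCA were each in 2.4%, against 3.97% and 1.79%. Both strands were searched for all 7 motifs, and a match describes letters in the window and is not a binding site. The 32851 promoters were not matched to the mTOR genes in expression or base composition. The shares therefore do not show an excess particular to the mTOR genes.

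The E-box promoters were those of Fnip1, Rragc, Rheb, Lamtor1, Lamtor4, Tbc1d7 and Rragb. They are shown for Fnip1, Rragc and Rheb, the genes of this set whose LRP5-null libraries all lay below the WT libraries, and for Lamtor1 and Tbc1d7, whose groups overlapped, so that the genes with and without separation can be read side by side. Capitals mark the E-box, each stretch lies upstream of the gene start and reads 5′ to 3′ on the strand of the gene, and positions are chr11:54438064-54438149 (plus strand) for Fnip1, chr4:123917281-123917366 (plus) for Rragc, chr5:24842412-24842497 (minus) for Rheb, chr7:101905729-101905814 (plus) for Lamtor1 and chr13:43171509-43171594 (minus) for Tbc1d7.
Fnip1: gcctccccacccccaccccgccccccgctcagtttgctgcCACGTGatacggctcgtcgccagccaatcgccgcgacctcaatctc
Rragc: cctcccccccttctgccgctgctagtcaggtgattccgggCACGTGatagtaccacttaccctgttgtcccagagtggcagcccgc
Rheb: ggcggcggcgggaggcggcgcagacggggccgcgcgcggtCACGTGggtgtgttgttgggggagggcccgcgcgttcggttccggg
Lamtor1: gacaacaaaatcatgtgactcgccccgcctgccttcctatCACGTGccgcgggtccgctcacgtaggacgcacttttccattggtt
Tbc1d7: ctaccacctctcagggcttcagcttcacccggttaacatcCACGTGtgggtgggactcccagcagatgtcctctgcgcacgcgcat

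Fnip1, Rragc and Rheb differed by −0.37, −0.21 and −0.13 on the log2 scale, and Lamtor1, Lamtor4 and Tbc1d7 with the same letters by 0.02, 0.10 and 0.18. The genes with an E-box had differences in both directions.

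Further genes of the pathway, in lists drawn up from general knowledge, were read from the same fit, and none of them was called. The lists were chosen with earlier results of these data known, so their shares beside those of all genes are a description only. Of the KICSTOR and further sensor genes, 6 of 8 were tested, 2 higher and 4 lower. Bmt2, the sensor of S-adenosylmethionine also called SAMTOR, was 20.6, 17.6 and 13.7 TPM in WT and 12.4, 12.3 and 13.03 TPM in LRP5-null (−0.41, adjusted p = 0.152). The groups of Bmt2 did not overlap, and WT replicate 3 was the nearest WT library. Kptn, a KICSTOR subunit, differed by 0.18 (adjusted p = 0.208).

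Of the mTORC2 and assembly genes, 5 of 7 were tested, 3 higher and 2 lower (2 and 3 under median-ratio scaling), and Prr5l, an mTORC2 partner, differed by 0.24 (adjusted p = 0.191). Further substrates and effectors of mTORC1 were 14 tested of 16, 12 of them higher (11 under median-ratio scaling), with a median log2 fold change of 0.11 beside 0.04 for all genes. Larp1, a repressor of mRNAs of the translation machinery, was 5.05, 5.52 and 6.36 TPM in WT and 7.0, 7.52 and 7.84 TPM in LRP5-null (0.35, adjusted p = 0.119). Ulk1, the kinase that starts autophagy, differed by 0.51 (adjusted p = 0.10) and Tfe3, a lysosomal transcription factor, by 0.25 (adjusted p = 0.181). Of further AMPK, LKB1 and stress genes, 7 of 10 were tested, 4 higher and 3 lower. Cab39, which holds LKB1 in its active form, was 97.7, 84.5 and 84.96 TPM in WT and 71.8, 73.4 and 76.1 TPM in LRP5-null, wholly lower (−0.27, adjusted p = 0.132), and Camkk2, an AMPK kinase, differed by 0.24 (adjusted p = 0.190).

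Amino acid transporters were 12 tested of 15, 8 higher and 4 lower (7 and 5 under median-ratio scaling), with a median log2 fold change of 0.21. Slc36a1, a proton-coupled carrier of small amino acids found on lysosomes, was 1.94, 2.32 and 2.21 TPM in WT and 5.54, 2.88 and 6.07 TPM in LRP5-null. LRP5-null replicate 2 stood much closer to WT than the other LRP5-null libraries (log2 fold change 0.84, adjusted p = 0.107). Slc7a11, the cystine carrier, was 15.3, 14.6 and 13.9 TPM in WT and 17.4, 17.5 and 17.8 TPM in LRP5-null (0.25, adjusted p = 0.120), and Slc7a7, a carrier of cationic amino acids, differed by −0.25 (adjusted p = 0.174). Genes of the ATF4 response to amino acid shortage were 8 tested of 12, 6 higher and 2 lower (5 and 3 under quantile normalization). Chac1, which breaks down glutathione, was 3.30, 3.14 and 3.61 TPM in WT and 4.45, 5.34 and 5.06 TPM in LRP5-null (0.45, adjusted p = 0.0765), and Atf4 itself differed by 0.19 (adjusted p = 0.210). At an unadjusted p under 0.05 these 6 lists together counted 13 genes higher (25%) and 4 lower (7.7%) among 52 tested, beside 14.4% and 9.12% of all genes tested. Without WT replicate 3, 12 of the 52 (23.1%) were called, beside 19.6% of all genes, among them Bmt2, Prr5l, Ulk1, Larp1, Tfeb, Cab39, Camkk2, Slc1a5, Slc7a5, Atf4 and Chac1, and with GC and length trends removed 5 (9.6%) were, beside 4.85% of all genes, among them Ulk1, Slc7a11, Slc7a7 and Eif4ebp1, which is also counted in the ATF4 list.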

How the data were processed

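RNA of 6 neutrophil libraries was analysed, 3 labelled WT and 3 labelled LRP5-null. The submitters' processing notes name mm9 and DESeq2, the methods name the DESeq2 pipeline with default parameters, and the tool behind the TPM values is not given in the sources used here. The authors deposited TPM per gene, corrected for gene length and scaled to the same total per library, so no read counts per gene remain and the counting error of a gene is unknown. A read summary deposited by the authors gives counts of reads per library (249841492 to 340580330 in total), shares of reads in percent, and a ratio of coverage at each transcript end, which was read but not used. The labels name a Percoll gradient and an mRNA kit, while by the methods cells positive for CD11b and Ly6G were sorted and total RNA libraries, stranded, were read from a single end, and the read summary lists paired-end reads. Gene identifiers are of a later annotation than mm9.

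The log2(TPM + 1) values of genes averaging 1 TPM or more were fitted with limma 3.58.1 (R 4.3.3), using a mean-variance trend and no covariates, two-sided, Benjamini-Hochberg adjusted over all genes tested. A count test was not used because TPM holds no counts. GC content and length came from the longest protein-coding transcript in GENCODE M1 (NCBIM37), known for 89.7% of the genes tested, and their trends were removed per library with natural splines of 5 degrees of freedom. The limma fit was tested on simulated data with independent noise for each gene and library. Those data lack the GC trends of these libraries, so that test does not bear on calls that follow from them. Ratios were compared with exact two-sided permutation tests. That of Rraga to Rragb was not computed, since Rragb is listed at 0 in some libraries. Promoters are RefSeq windows of GRCm38.p6, and protein sequences were not used here.

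All 45 genes are accounted for. A gene of the other lists is not reported here. Values in every library are given for core members, for members with an unadjusted p under 0.05 or groups without overlap, and for the most and least abundant of each complex. From each other list at most 3 genes with an unadjusted p under 0.05 are described with values, by smallest p, and those called in an alternative are named after their values were seen. The members and lists were chosen with earlier results of these data known. Alternatives were another pseudocount (0.1), no filter or a minimum mean of 5 TPM, median-ratio, quantile and rescaled values (without mitochondrial and the 20 most abundant genes), limma without trend or robust, ribosomal RNA share as a covariate, removal of GC and length trends, the replicate number as a block, and leaving out each library. The comparison of libraries with a ribosomal RNA share above 2%, which is WT replicate 3 against LRP5-null with the spread of the LRP5-null libraries, was added after seeing the data, as were the ratios with GC and length trends removed.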

Additional observations from a re-analysis of the deposited data

How the results depend on the processing

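The call of 0 of the mTOR genes held under every alternative except the 2 described, removal of GC and length trends (2 genes called) and leaving out a library (0 to 6 genes, the 6 without WT replicate 3). Their count at an unadjusted p under 0.05, 9 as fitted, was 5 with the ribosomal RNA share as a covariate (12.2%, beside 18.1% of all genes), 5 in the libraries with a share above 2% alone (12.2% beside 15.9%), and 5 to 15 with a library left out (12.2% to 36.6% beside 13.8% to 38.4%), the 15 without WT replicate 3. Over all genes, 52 were called as fitted, 3 without a filter, 29 at a mean of at least 5 TPM, 99 after rescaling without mitochondrial and the 20 most abundant genes (72 of them higher, against 26 of 52), 77 under median-ratio scaling (35 higher), 6 with the ribosomal RNA share as a covariate, 425 with GC and length trends removed, 6 in the libraries above 2% alone, and 2 to 1920 with a library left out (1920 without WT replicate 3, 2 to 18 otherwise). With the replicate block 4 genes were called, none of them an mTOR gene. The residuals of same-numbered libraries had correlations of 0.229, −0.008 and 0.131. WT replicates 1 and 3 correlated best with the same-numbered LRP5-null library, while WT replicate 2 was near 0 with each (−0.014, −0.008 and 0.022). With 3 libraries a group these values cannot decide whether the numbers mark pairs. The median of all genes moved from 0.0405 to 0.00324 under median-ratio scaling, and that of the mTOR genes from 0.0356 to −0.00266.

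Of the 41 genes, 18 kept their sign in every alternative, among them Rptor, Tsc1, Tsc2, Rheb, Rraga, Rragc, Lamtor5, Castor1, Slc38a9, Flcn, Fnip1, Prkaa1 and Eif4ebp1, and 23 changed sign in 1 alternative or more, none of which had an unadjusted p under 0.05 as fitted. With GC and length trends removed, the log2 fold change was −0.16 for Mtor, −0.13 for Lamtor1, −0.084 for Lamtor2, −0.061 for Lamtor4, −0.026 for Nprl2, 0.0044 for Seh1l, −0.13 for Sesn2, −0.070 for Rps6kb2, −0.0004 for Prkag1 and −0.014 for Stk11. In the libraries above 2% alone it was −0.24 for Mtor, −0.029 for Mlst8, 0.033 for Akt1s1, −0.21 for Mapkap1, −0.049 for Lamtor1, 0.020 for Lamtor3, −0.031 for Lamtor4, −0.11 for Nprl2, 0.029 for Seh1l, −0.22 for Sesn2, −0.11 for Rps6kb2, −0.064 for Eif4ebp2, −0.032 for Prkag1 and −0.0042 for Stk11. Under median-ratio scaling it was −0.0027 for Mtor, −0.014 for Rictor, −0.028 for Mapkap1, −0.021 for Lamtor1, −0.039 for Sesn2 and −0.0051 for Rps6kb1, and under quantile normalization −0.036 for Mtor, −0.022 for Rictor, −0.012 for Mapkap1, −0.052 for Rragd, −0.0073 for Nprl2, −0.012 for Sesn3 and −0.013 for Rps6kb1. After rescaling it was 0.016 for Akt1s1 and 0.017 for Ddit4. With the ribosomal RNA share as a covariate it was −0.16 for Mtor, −0.16 for Mapkap1, −0.023 for Lamtor1, 0.0051 for Lamtor3, −0.054 for Nprl2, −0.15 for Sesn2, −0.068 for Rps6kb2 and −0.0031 for Eif4ebp2. With a library left out the values ran from −0.11 to 0.17 for Mtor, −0.17 to 0.26 for Akt1s1, −0.020 to 0.086 for Rictor, −0.075 to 0.16 for Mapkap1, −0.023 to 0.097 for Rragd, −0.0042 to 0.058 for Lamtor1, −0.088 to 0.040 for Lamtor3, −0.074 to 0.0064 for Depdc5, −0.015 to 0.16 for Nprl2, −0.10 to 0.033 for Wdr24, −0.076 to 0.11 for Sesn2, −0.088 to 0.16 for Rps6kb1, −0.040 to 0.12 for Rps6kb2, −0.11 to 0.058 for Ddit4 and −0.16 to 0.061 for Prkab1. The difference of the log2 ratio of Rps6kb1 to Rps6kb2 ran from −0.13 to 0.11 with a library left out and was 0.30 with GC and length trends removed, and no other ratio changed sign. The cause of these changes was not tested. TPM holds no depth, and with 3 libraries a group a difference smaller than the spread between replicates was not detectable here.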
